A study of Mus musculus with 6 samples.

Results

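pi-Tfcp2l1 is a piRNA cluster transcript named after Tfcp2l1, which encodes a transcription factor known from pluripotent cells, and most of its reads had the sequence of U1 small nuclear RNA. It was examined here because its reads were more numerous after ionizing radiation (IR), so its levels and those of its sequences are given as a description, without a test. Its members are the read sequences whose every listed place lies on pi-Tfcp2l1, 123 of the 27231 distinct sequences of the series and 944 of its 59263 reads. A further 46 sequences, with 47 reads, were placed on pi-Tfcp2l1 and also on another piRNA gene and were left out.

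The study sequenced small RNA of purified primordial germ cells, the precursors of sperm, from male mouse embryos at E13.5, a stage given in days of embryonic development. There were 3 libraries of cells exposed to IR and 3 of untreated cells, here called control. No genotype, strain, radiation dose or interval after radiation is named in the labels, nor whether the 3 replicates of a group came from separate animals. The files hold only reads placed on piRNA cluster transcripts, between 7788 and 11280 per library, so a share of a file is not a share of the library, and fewer fragments per cell cannot be told apart from fewer cells that carry them. None of 21 marker genes of germ cells and of the somatic gonad gives its name to a piRNA gene with reads, so the labelled cell type could not be checked against markers.

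PIWI-interacting RNAs (piRNAs) are small RNAs of the germ line that guide PIWI proteins to transposons and other targets. They are cut from long precursors, and one class of precursor comes from the 3' untranslated regions (3' UTRs) of messenger RNAs. U1 is a small nuclear RNA of the spliceosome whose 5' end pairs with 5' splice sites. Further along, U1 carries a single-stranded uridine-rich stretch, the Sm site, on which a ring of Sm proteins is assembled in the cytoplasm before the particle returns to the nucleus. U2, U4, U5 and the minor spliceosomal RNAs U11 and U12 carry such a site, as does U7, while U6 does not.

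The link between the cluster and U1 is Gm23497, an annotated small nuclear RNA gene of 130 nt that resembles U1. It lies at chromosome 1, 118681821 to 118681950, plus strand (mm10), inside exon 15 of Tfcp2l1, the last exon, in its 3' UTR (118677435 to 118685168). On the cluster transcript it spans positions 5923 to 6052. Aligned to Rnu1a1, an annotated U1 gene of 164 nt (chromosome 11, 87422867 to 87423030, plus strand), Gm23497 lacks U1 nucleotides 82 to 113 and 155 to 156, and 100 of the remaining 130 bases are identical. U1 reads fell on 2 stretches, called here the 5' site (U1 nucleotides 10 to 31) and the Sm site (124 to 145). Nucleotides of U1 are counted from 1 at its 5' end, and U is written as T.

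The U1 sequence is shown first whole, with both stretches in capitals, from the GENCODE transcript, because the reads below are cut from it.
Rnu1a1: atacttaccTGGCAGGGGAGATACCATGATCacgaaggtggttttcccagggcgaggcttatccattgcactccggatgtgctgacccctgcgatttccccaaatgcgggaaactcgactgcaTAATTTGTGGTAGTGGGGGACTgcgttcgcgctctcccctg

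The same stretches of U1 and of Gm23497 are set side by side, with the bases that differ in capitals. The Gm23497 stretches lie at chromosome 1, 118681830 to 118681851 and 118681912 to 118681933, plus strand.
U1, 5' site: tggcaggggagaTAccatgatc
Gm23497, 5' site: tggcaggggagaGTccatgatc
U1, Sm site: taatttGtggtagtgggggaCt
Gm23497, Sm site: taatttTtggtagtgggggaAt
The differences are T22G and A23T at the 5' site and G130T and C144A at the Sm site, with the U1 base first and the Gm23497 base last.

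Of the 944 reads, 788 (83.5%) matched an annotated U1 gene exactly and a further 74 differed from U1 in 1 base, which leaves 82 reads that are not within 1 base of U1. The 788 exact reads came from 22 distinct sequences, 14 at the Sm site with 709 reads and 8 at the 5' site with 79 reads. All lay on the strand of the Tfcp2l1 messenger RNA, and all were 20 to 23 nt long. None of them matched the Tfcp2l1 messenger RNA exactly: 40 reads, of 1 sequence, differed from it in 1 base and 748 reads in 2 bases. No sequence of pi-Tfcp2l1 of any kind differed from the annotated Tfcp2l1 messenger RNA of 9269 nt in more than 2 bases.

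The 1 sequence overlapping these stretches that matched Gm23497 exactly and not U1 had 2 reads, both in control replicate 3. It is shown with the Sm motif in capitals, to set it against the U1 reads below.
Gm23497 read, positions 6009 to 6029: ctgagtaATTTTTGGtagtgg

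The limit of 2 differing bases coincided with where U1 reads were seen. Of the 145 windows of 20 nt along Rnu1a1, 9 lie within 2 bases of some stretch of that messenger RNA. They begin at U1 nucleotides 10 to 13 and 123 to 127. Over lengths of 20 to 30 nt there are 22 pairs of a first and a last U1 nucleotide within that limit, and U1 reads filled 20 of them and no other. The shortest read in the files was 20 nt. No exact U1 read was placed on any other piRNA gene, where 0 of 58319 reads allows a share of up to 0.00514%, for counting error only. Fragments from the rest of U1 would differ from Tfcp2l1 in 3 or more bases, and whether the libraries held them was not tested, because reads off the clusters are not in the files.

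**Figure D1:**
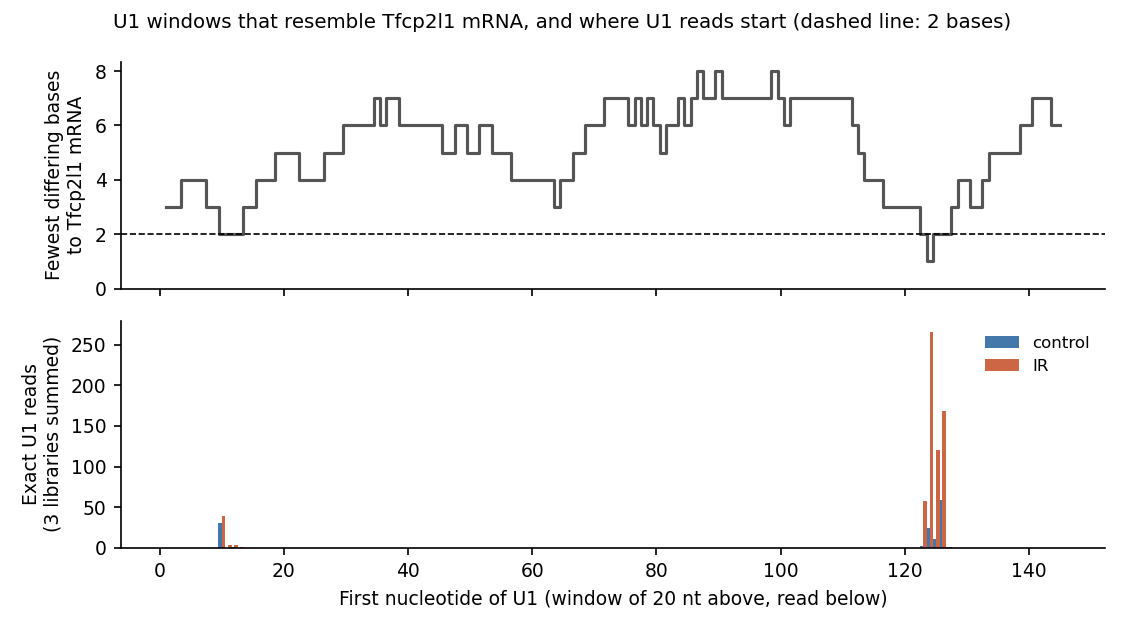
The upper panel plots, for each 20-nt window of U1 by its first nucleotide, the fewest bases in which it differs from Tfcp2l1 messenger RNA, with a dashed line at 2. The lower panel plots exact U1 reads by first nucleotide, summed over the 3 libraries of each group (control blue, IR orange). Reads stand only where the upper line is at or under 2, at nucleotides 10 to 13 and 123 to 127.

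pi-Tfcp2l1 held 74, 55 and 54 reads in control replicates 1 to 3 and 373, 206 and 182 in IR replicates 1 to 3. The groups did not overlap, and IR replicate 1 was the highest. By reads it ranked 17, 19 and 19 among the piRNA genes of the control libraries and 4, 7 and 3 in the IR libraries. As a share of the file it averaged 0.640% ± 0.124 in control and 2.49% ± 0.752 in IR (SD, n = 3). The log2 fold change, IR over control, was 1.89 (SE 0.27, edgeR). Of 103 piRNA genes tested, 8 passed an adjusted p of 0.05 (7.77%), 4 of them higher in IR (3.88%). pi-Tfcp2l1 was 1 of those 4 and was chosen by this contrast, so its place among them is no further evidence.

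The 3 kinds of read in the cluster did not move together. Exact Sm site reads numbered 43, 33 and 21 in control and 299, 169 and 144 in IR. That is 0.344% ± 0.130 of the file in control and 1.999% ± 0.591 in IR, a ratio of the means of 5.81, and the groups did not overlap. Exact 5' site reads numbered 14, 8 and 9 in control and 21, 7 and 20 in IR. Their share was 0.107% ± 0.0287 in control and 0.168% ± 0.0986 in IR, and the groups overlapped, with IR replicate 2 the lowest of all 6 libraries. Reads not within 1 base of U1 numbered 15, 8 and 21 in control and 18, 13 and 7 in IR. Their share was 0.148% ± 0.0473 in control and 0.122% ± 0.0353 in IR, with overlapping groups. Within a library there were 2.33 to 4.12 Sm site reads for each 5' site read in control and 7.20 to 24.1 in IR. This ratio is taken within libraries and does not depend on how they were scaled. The 5' site counts behind it are between 7 and 21.

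**Figure D2:**
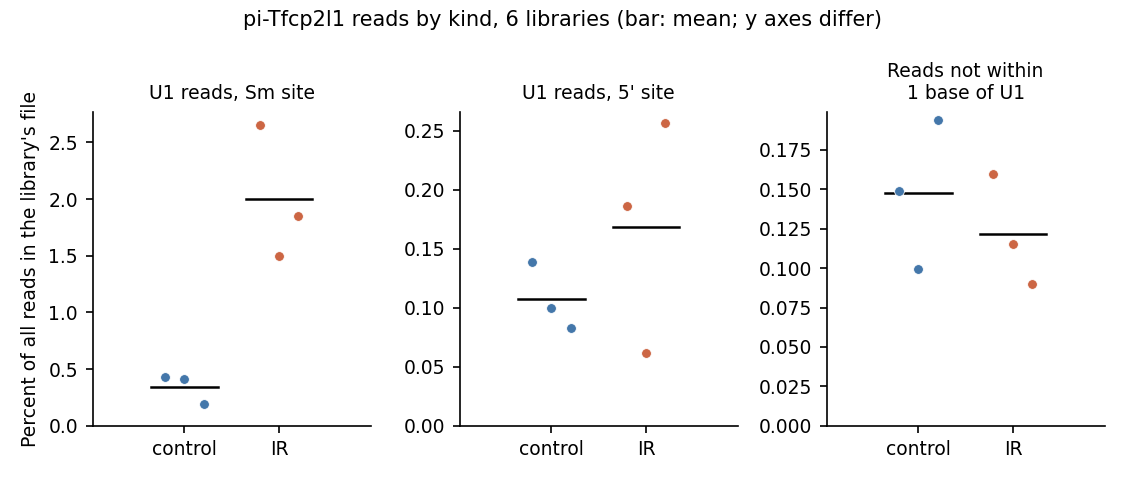
Each point is a library and each bar the mean of a group of 3. The y axis, which differs between panels, is the percent of all reads in the library's file for exact U1 reads of the Sm site, exact U1 reads of the 5' site, and reads not within 1 base of U1. The groups separate in the first panel and overlap in the other two.

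With the U1 reads of the cluster split in this way, after the counts had been seen, the same edgeR fit gave a log2 fold change of 2.46 (SE 0.32) for the cluster with its Sm site reads alone. With the 5' site reads alone it was 0.52 (SE 0.46). Without exact U1 reads the cluster had a log2 fold change of 0.71 (SE 0.34), and without any read within 1 base of U1 it was -0.36 (SE 0.36). The last value lies on the other side of 0, within 1 SE of it. So the higher count of pi-Tfcp2l1 in IR was carried by reads at the Sm site of U1.

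The 13 sequences with 10 or more copies held 82.7% of the reads of the cluster, and 12 of the 13 cover the Sm site. The most frequent are printed with the Sm motif ATTTNTGG in capitals, ordered by their first nucleotide, because those of the Sm site differ in where they begin and end. The leading read of the 5' site is added last.
Start 123, end 142: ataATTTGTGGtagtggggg
Start 123, end 143: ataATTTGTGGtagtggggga
Start 124, end 143: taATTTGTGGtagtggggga
Start 124, end 144: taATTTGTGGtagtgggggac
Start 124, end 145: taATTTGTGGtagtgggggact
Start 125, end 144: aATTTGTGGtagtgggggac
Start 125, end 145: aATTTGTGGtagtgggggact
Start 126, end 145: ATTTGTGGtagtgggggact
Start 126, end 146: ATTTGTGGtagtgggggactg
Start 10, end 31: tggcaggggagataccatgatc

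The sequence of U1 nucleotides 126 to 145, which begins with the first base of the motif, led the control libraries with 23, 20 and 10 reads. It had 57, 45 and 36 reads in IR. Its log2 fold change was 1.54 (SE 0.38), the smallest of the 4 Sm site sequences that had enough reads to be fitted.

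The sequence of nucleotides 124 to 144 led in IR replicate 1, with 79 reads, and had 45 and 29 in the other two. Its control counts were 1, 3 and 3, and its log2 fold change was 4.52 (SE 0.49). One base longer at the 3' end, nucleotides 124 to 145 had 4, 4 and 4 reads in control and 29, 12 and 23 in IR (2.61, SE 0.52). The sequence of nucleotides 125 to 144 had 2, 0 and 0 reads in control and 34, 22 and 16 in IR (5.08, SE 0.71). Its control reads were both in replicate 1, without which the control count is 0 and no fold is given, and leaving out any other single library gave 4.41 to 5.19. Extended by 1 base to 145, it had 4, 2 and 2 reads in control and 22, 4 and 12 in IR. Thus the 2 sequences that end at 144 had larger log2 fold changes than the 2 fitted sequences that end at 145. This difference between sequences of 1 site was not itself tested. The sequences 124 to 144, 125 to 144 and 124 to 145 passed the read filter only through their IR counts. The sequence 126 to 145 needed its IR counts as well, because its 10 reads in control replicate 3 fell just under the filter. Sequences that pass in this way have large fold changes by selection, so the sizes are a description only.

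The reads that begin at 123 were nearly absent in control. Nucleotides 123 to 143 had 1, 1 and 0 reads in control and 25, 8 and 4 in IR. Nucleotides 123 to 142 had 0 reads in every control library and 8, 9 and 3 in IR. In 97 control Sm site reads, pooled over libraries, a count of 0 allows a share of up to 3.09%, for counting error only. In IR there were 20 of 612 such reads, 2.68%, 5.33% and 2.08% in replicates 1 to 3. The bound therefore does not separate the groups. Nucleotides 124 to 143 had 3, 1 and 0 reads in control and 17, 14 and 5 in IR.

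At the 5' site a single sequence, nucleotides 10 to 31, made up 60 of 79 reads. It had 12, 7 and 8 reads in control and 14, 5 and 14 in IR, overlapping groups with a log2 fold change of 0.52 (SE 0.56), which was -0.03 without IR replicate 3. It begins within the last bases of the stretch near the 5' end of U1 that pairs with splice sites. Of the 79 reads, 69 began at nucleotide 10 and 66 ended at nucleotide 31. For exact U1 reads, nucleotide 10 is the first start and nucleotide 32 the last end that the limit of 2 differing bases allows here. Exact reads reaching further in either direction could therefore not be seen. Reads that differ from U1 in 1 base began at nucleotides 8 and 9, with 1 read each. Reads of 22 nt were 87.4% ± 1.59 of 5' site reads in control and 69.4% ± 2.44 in IR (SD, n = 3), from 27 of 31 and 33 of 48 reads.

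Of the 124 sequences tested across all files, 10 passed (8.06%), 6 higher in IR (4.84%). The 4 fitted Sm site sequences are among those 6, and the 5' site sequence did not pass. The cluster was chosen by this contrast, so their place among the 6 is no further evidence. It also depended on the processing. Leaving out control replicate 3 lost 2 of the 4, with log2 fold changes of 1.09 for nucleotides 126 to 145 and 2.42 for 124 to 145. The sequence 126 to 145 was also lost with file totals as library size, without a filter and without IR replicate 1. The remaining 118 sequences of pi-Tfcp2l1 had too few reads to be fitted.

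The first nucleotide of the Sm site reads differed between the groups. In control, 26, 21 and 12 reads began at 126 and 9, 8 and 7 at 124. In IR, 74, 51 and 43 began at 126 and 132, 72 and 62 at 124. Reads beginning at 126 were thus 60.4% ± 3.25 of Sm site reads in control and 28.3% ± 3.05 in IR (SD, n = 3), and those beginning at 124 were 26.2% ± 6.42 and 43.3% ± 0.794. With each distinct sequence counted once per library, the difference for starts at 126 kept its sign (-12.1 percentage points, against -32.2 by copies) and that for starts at 124 did not (-1.35 against 17.1). In every control library 126 was the most frequent start, and in every IR library 124 was. Starts at 125 were 10.6% ± 5.20 in control and 19.7% ± 2.53 in IR, and starts at 123 were 1.79% ± 1.59 and 8.65% ± 3.32. For the starts at 123, 124, 125 and 126 the libraries of the groups did not overlap. The shares are parts of one whole in each library, so a lower share at 126 means higher shares elsewhere, and these are not separate results. A start at 127 was seen in 2 reads.

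The last nucleotide differed as well. Reads ending at 145 were 75.7% ± 3.38 of Sm site reads in control and 40.5% ± 7.62 in IR, and those ending at 144 were 10.1% ± 3.76 and 37.3% ± 4.85, in each case without overlap. Ends at 146 were 9.07% ± 2.81 in control and 7.75% ± 3.24 in IR, which overlapped. Both ends moved toward the 5' end of U1, the mean start from 125.33 ± 0.0802 to 124.68 ± 0.0895 and the mean end from 144.89 ± 0.0568 to 144.38 ± 0.198 (SD, n = 3). The mean length therefore changed little, from 20.6 ± 0.137 to 20.7 ± 0.152 nt.

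**Figure D3:**
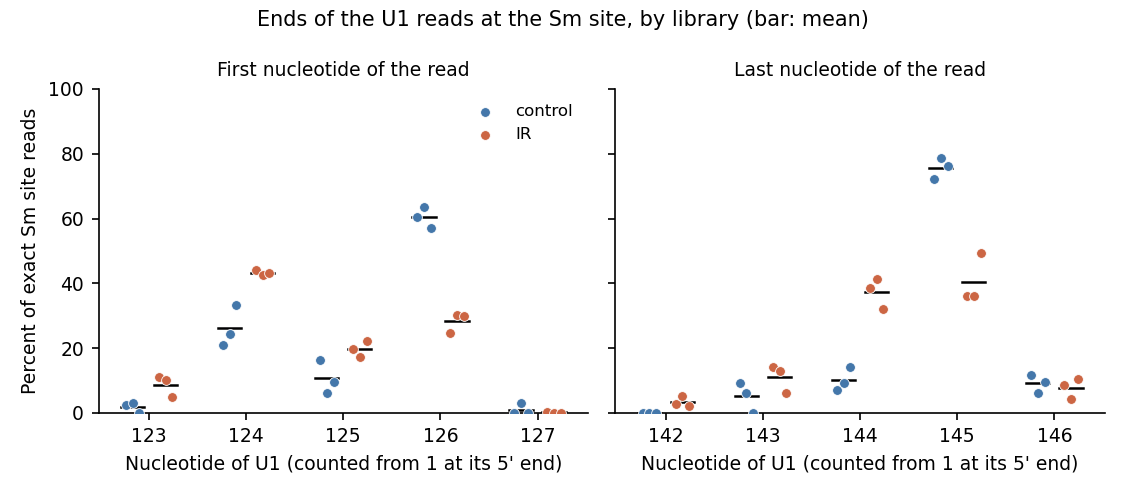
Points are libraries and bars the means of 3. The y axis is the percent of the exact Sm site reads of a library that begin (left) or end (right) at each U1 nucleotide. Control libraries (blue) stand highest at a start of 126 and an end of 145, and IR libraries (orange) stand highest at a start of 124 and, for the end, at 144 or 145.

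By length, Sm site reads of 20 nt were 59.8% ± 10.6 in control and 45.1% ± 8.20 in IR, and reads of 21 nt were 25.2% ± 7.08 and 41.1% ± 6.46. The groups overlapped for 20 nt and did not for 21 nt. With each distinct sequence counted once per library, the IR minus control difference turned from -14.7 to 8.65 percentage points for 20 nt and from 15.9 to -9.40 for 21 nt. The files end at 20 nt, and 20 nt was the most frequent length in control, so shorter fragments of the site were not seen. Within the length and mismatch limits, an exact U1 read that begins at 126 can end only at 145 or 146. One that begins at 125 can end at 144 to 146, one at 124 at 143 to 146, and one at 123 at 142 or 143. These limits are the same in both groups and do not set how many reads each allowed pair held. They do tie the last nucleotide to the first, so the differences in start and in end are not separate results. They also hold these reads to 20 to 23 nt, which leaves the mean length little room to change. The 12 pairs of ends seen at the Sm site are all that the limits allow there.

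**Figure D4:**
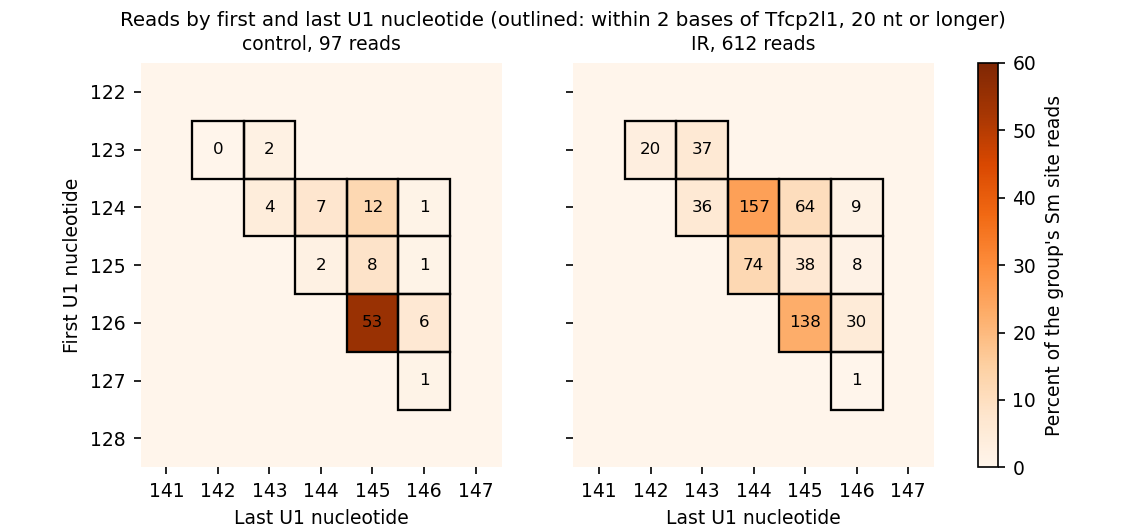
Each cell gives the exact Sm site reads, summed over the 3 libraries of a group, with a given first (y) and last (x) U1 nucleotide, shaded by their percent of the group's reads. Outlined cells are the pairs within 2 bases of Tfcp2l1 and at least 20 nt. Of 97 control reads, 53 span 126 to 145, and of 612 IR reads, 157 span 124 to 144 and 138 span 126 to 145.

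The 74 reads that differ from U1 in 1 base came from 23 sequences, 72 reads at the Sm site (2, 4 and 3 in control and 35, 17 and 11 in IR) and 2 at the 5' site. In 51 of the 74 the differing base was the last of the read. An exact U1 read over both nucleotides 130 and 144 already differs from Tfcp2l1 in 2 bases, so most further differences inside such a read would have put it past the limit, and the share of differences at the last base cannot be told apart from that limit. The most frequent was C144T, with 19 reads that begin at 124 and 8 that begin at 125. Among reads that match U1 up to nucleotide 143 and end at 144, 234 ended in C as Rnu1a1 does, 27 in T, 6 in G as Rnu1b6 does and 4 in A as Gm23497 does. T was the last base of 3 of 12 such reads in control and 24 of 259 in IR, 25.0% and 9.27%. With 12 control reads, this difference rests on 3 reads. A final T at nucleotide 147 (C147T), the base of Gm23497, was seen in 15 reads. A read with the C of U1 there would differ from Tfcp2l1 in 3 bases, and none was seen. Over all 23 sequences the differing base was that of Gm23497 in 11, with 23 reads. Added bases at 3' ends, variant U1 copies and sequencing errors could not be told apart from these counts.

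The remaining 82 reads came from 78 sequences, 4 with 2 copies and 74 with 1, and none of the 78 was seen in more than 1 library. They were spread from position 26 to position 9010 of the transcript over 75 first positions, and no first position had more than 3 reads. A few lay close together, among them 3 reads that begin at 6803, 6804 and 6805. Of the 82, 5 overlapped Gm23497, and 3 of these carried the Sm motif in its U1 form and differed from U1 in 2 bases. By annotation 75 lay in the 3' UTR, 6 in the coding sequence and 1 in the 5' UTR. The 3' UTR held 91.5% of them and makes up 83.4% of the transcript. Of the 82, 73 lay on the strand of the messenger RNA and 9 on the other (3 in control, 6 in IR). They were 20 to 56 nt long, with a median of 24 nt. Reads of 24 to 32 nt, the range of piRNAs, were 29.3% of them, against 37.7% of all reads of the series outside the cluster, and reads beginning with T, the usual first base of piRNAs, were 28.0% against 31.9%. Exact matches to Tfcp2l1 messenger RNA made up 45 of the 82, 31 in control and 14 in IR. The exact matches numbered 12, 5 and 14 in control and 6, 5 and 3 in IR, and reads with 1 or 2 differing bases 3, 3 and 7 in control and 12, 8 and 4 in IR. No sequence met the minimum of 3 copies or 2 libraries set for naming one of these reads.

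**Figure D5:**
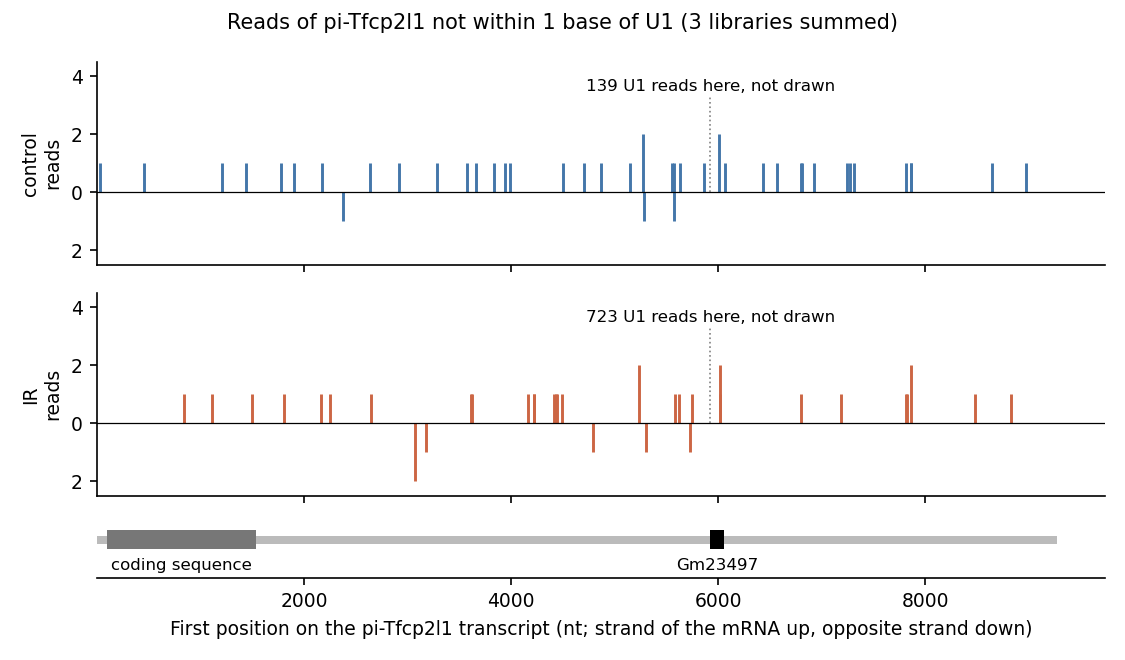
Lines mark the first position on the transcript of reads not within 1 base of U1, summed over the 3 libraries of each group, upward for the strand of the messenger RNA and downward for the other strand. The lowest strip shows the coding sequence and Gm23497, where 139 control and 723 IR reads within 1 base of U1 lie and are not drawn. The drawn reads, 44 in control and 38 in IR, are spread along the 3' UTR.

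The motif ATTTNTGG, searched on the read's own strand, was found in 36 sequences of pi-Tfcp2l1 and in 122 of the 27231 of the series (0.448%). These 122 sequences held 257 control and 938 IR reads, 107 and 674 of them in pi-Tfcp2l1. U1 has the motif at nucleotides 126 to 133, so the leading control read begins at its first base. U4 and the minor spliceosomal RNAs U4atac and U6atac, also on the list, have no named gene in the reference and were not searched. Among the listed small nuclear RNAs that were, 1 other had the motif in a read of the files, U2, which recognises the branch point of introns. It is printed as the counterpart of the U1 reads, with the motif in capitals.
U2, nucleotides 91 to 110: ttaaatggATTTTTGGaagt
It had 30, 17 and 24 reads in control and 64, 55 and 41 in IR, without overlap, and the edgeR quasi-likelihood test gave a log2 fold change of 1.35 with an SE of 0.33 (Benjamini-Hochberg adjusted p = 0.0258 over 124 sequences). It was already known from earlier results of these data. The call was lost in 5 of 10 alternatives, among them the file total as library size (adjusted p = 0.0548), no filter (0.432), and leaving out control replicate 2 (0.143), control replicate 3 (0.121) or IR replicate 1 (0.0703). Over its alternatives the adjusted p ran from 0.00951 to 0.432. The remaining 85 sequences with the motif, in neither pi-Tfcp2l1 nor U2, had 25, 29 and 25 reads in control and 43, 29 and 32 in IR.

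U2 as a whole had 2389 reads on other piRNA genes, and 693 of them began at its first nucleotide. Summed, they numbered 347, 390 and 447 in control and 476, 483 and 246 in IR, and edgeR gave a log2 fold change of -0.18 with an SE of 0.43 (adjusted p = 0.829). Among the small nuclear and related RNAs listed, U4, U4atac and U6atac were not matched, for lack of a named gene in the reference. The other 9 have such a gene, and 7 of these had reads. Outside pi-Tfcp2l1, 4 of them could be tested, 1 passed higher and 0 lower, against 4 of all 49 source RNAs tested (8.16%). Their median log2 fold change was 0.03, and that of all 49 was 0.05. The 1 that passed was 7SL, the RNA of the signal recognition particle, which has no Sm site. It had 10, 15 and 9 reads in control and 54, 54 and 46 in IR, and edgeR gave a log2 fold change of 1.97 with an SE of 0.39 (adjusted p = 0.00506). These control counts lie near the minimum of the read filter. Whether 7SL would have passed the filter on its control counts alone was not tested. Its adjusted p was 0.0546 without control replicate 1 and 0.0642 without IR replicate 1, and it ran from 2.89e-05 to 0.109 over its alternatives. U6, which pairs with U2 in the spliceosome and lacks an Sm site, had a log2 fold change of -0.60 with an SE of 0.48 in edgeR (adjusted p = 0.504), and 7SK, a regulator of transcription elongation, one of 0.24 with an SE of 0.37 (adjusted p = 0.811). U5 had 8 reads and U12 had 4, while U11 and U7 had 0 in all libraries.

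The piRNA genes whose log2 CPM over the 6 libraries was most like that of pi-Tfcp2l1 were 3-qA2-617 (Pearson r = 0.941), pi-Zmat3 (0.940) and pi-Dnmt3a (0.822), out of 102 compared. The 6 values fall into the same groups of 3, so a piRNA gene that is higher in IR scores high by this measure. 3-qA2-617 had 49, 28 and 45 reads in control and 118, 104 and 63 in IR, pi-Zmat3 had 6, 3 and 6 against 26, 24 and 18, and pi-Dnmt3a had 8, 3 and 7 against 14, 14 and 10. pi-Tfcp2l1 had more reads than any of them in every library.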

How the data were processed

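Each deposited file lists, per library, read sequences placed on piRNA cluster transcripts, with the authors' counts of copies, a strand, the number of mapped places and 1 place per line. The deposited number of mapped places equalled the lines of each sequence. RNA of 18 to 50 nt was selected, per the labels' protocols, and the build was mm10, per the submitters' processing notes. The aligner is not given in the sources used for this work, nor is its mismatch limit. File totals, 7788 to 11280 reads, limit the precision and are not library depths.

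Copies were counted once per sequence and library. Reads were matched exactly in sense to GENCODE vM21 transcripts (4 U1 genes), 1-base differences from U1 were counted against Rnu1a1, and positions on pi-Tfcp2l1.1 exceed those on the annotated messenger RNA by 1. Gm23497 was aligned with Biopython 1.88. Counts were fitted with edgeR 4.0.16 (R 4.3.3; TMM, filterByExpr, quasi-likelihood F-test, Benjamini-Hochberg adjustment; SE as the log2 fold change over the root of F), and DESeq2 1.42.0 was an alternative. The fits were tested on simulated data. P-values measure the spread between libraries, which may be technical, and libraries of a group differed by more than sampling noise. Members and lists were chosen with earlier results of these data known. Sequences of pi-Tfcp2l1 were named from 10 copies, or from 3 copies or 2 libraries where not U1, with every listed small nuclear RNA and the 3 piRNA genes most alike.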

Additional observations from a re-analysis of the deposited data

How the results depend on the processing

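The log2 fold change of pi-Tfcp2l1, 1.89, stayed within 1 SD of its libraries (0.38 on the log2 scale) in 13 of 17 alternatives. With the replicate block it was 1.87, and leaving out single libraries gave 1.62 to 2.01. It moved to 0.71 without exact U1 reads and, in splits chosen after seeing the data, to -0.36 without reads within 1 base of U1, 2.46 with Sm site reads alone and 0.52 with 5' site reads alone. The 8 piRNA genes called became 5 with reads of 1 mapped place, 7 with the replicate block and 3 to 15 without single libraries. The 10 sequences called became 10 with the replicate block and 4 to 21 without single libraries. The 4 source RNAs called became 2 with file totals as library size, 1 with the replicate block and 1 to 6 without single libraries; the cause of these moves was not tested. 7SL lost its call under the replicate block (adjusted p = 0.109, edgeR). Same-numbered libraries deviated with r of -0.167, 0.109 and 0.123 over 103 piRNA genes, and differently numbered ones with r of -0.251 to 0.130. No pairing by number was seen, but with few libraries and low counts these values cannot show that there was none. U2, -0.18, ran from -0.25 to 0.02 without single libraries and was 0.0154, reversed, without IR replicate 3.

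The IR minus control difference in Sm site reads was 17.1 percentage points for starts at 124 (14.5 to 20.7 without single libraries), -32.2 for starts at 126 (-33.8 to -30.4), -14.7 for 20 nt (-20.8 to -11.3) and 15.9 for 21 nt (12.2 to 19.99). With each distinct sequence counted once per library these were -1.35, -12.1, 8.65 and -9.40, so the sign of 3 of the 4 depends on counting copies. Allowing 1 mismatch to U1 left all 4 within 1 SD. A comparison of U1 reads outside pi-Tfcp2l1 was not run, as there were 0. The reads per library, 54 to 373, limit what composition can show, and 5' site counts of 7 to 21 most of all.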
